A study of Mus musculus with 5 samples.

Results

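Mouse chromosome 15 holds 1593 of the 30398 RAP1 peaks in the deposited list, and its peaks lie more densely towards the distal end, the end away from the centromere. The peaks were taken by position alone, as all list entries on chromosome 15. The chromosome, its bin from 79000000 to 80000000 and its window from 101.9 to 103.1 Mb were chosen by measured values of these same peaks: their density, their reads and their control reads. Those quantities are therefore given as descriptions, with no test.

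The study mapped RAP1 by chromatin immunoprecipitation and sequencing in mouse embryonic fibroblasts of mixed genetic background. The cells had been immortalised with the large T antigen of the virus SV40 and were grown with puromycin, in the wild-type and in the control lines alike. There are 5 libraries: 2 RAP1 immunoprecipitates from wild-type fibroblasts, 2 from Rap1-deleted fibroblasts and 1 input without antibody. The design text calls the fibroblasts of each pair independent of each other. The labels do not say how the gene was deleted. The deposited list merges the libraries into a positive read set, read here as wild type, and a negative read set, read here as Rap1-deleted, after the design text. No value belongs to a single library, so nothing below has a spread between replicates, and where the input went is not given in the sources used here. Fibroblast identity could not be checked, because a peak list holds no expression values.

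RAP1 is a member of shelterin, the complex that caps telomeres. It does not grip telomeric DNA by itself in mammals but is brought there by its partner TRF2, and it helps to keep telomeres from recombining. RAP1 is also found away from telomeres, along the arms of chromosomes, and its loss alters the activity of some genes there. Mouse chromosome 15 has its centromere at one end, so the distal end is the far one of a single long arm. In the RefSeq gene order of the GRCm38 assembly this arm closes with gene families of known function. The type II keratin region runs from Krt80 to Krt18, with 26 keratin genes that encode filament proteins of epithelia and hair. After it comes the HoxC cluster, with 9 genes from Hoxc13 to Hoxc4 that encode transcription factors of body patterning, between Calcoco1 and Smug1. After HoxC the table lists 15 of the chromosome's 776 protein-coding genes. The peaks are on mm9, another assembly, so no peak was assigned to any of these genes, and the sequence under the peaks was not used here.

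Between its first listed peak, from 3288221 to 3288313, and its last, from 103466367 to 103466413, chromosome 15 spans 100.2 Mb and holds 15.9 peaks per Mb. The other 18 autosomes run from 6.91 to 18.4 peaks per Mb, with a median of 12.3, and chromosomes 11 and 19 are denser. The first listed peak holds 26 positive reads and the last 25, both without negative reads, so neither of these peaks is rich in reads. The median length and read number of its peaks equal those of the list. Its median length is 56 bp (interquartile range 39 to 78 bp), against 56 bp in the whole list. The positive reads of a peak run from 15 to 111, with a median of 28 and quartiles of 24 and 34, and the median of the whole list is 28 too. The deposited false discovery rate is at or under 0.01 for 886 peaks (55.6%), where 55.9% of the whole list meets that limit. Among the authors' 1000 best ranks 54 lie on chromosome 15 (5.4%), a share close to the 5.24% of all peaks that the chromosome holds.

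For 1290 of the 1593 peaks (81.0%), the listed length equals the distance from the forward-strand mode to the reverse-strand mode, in bp. In the whole list this holds for 82.2% of the peaks. In sonicated chromatin the reads of the forward strand pile up before a bound site and those of the reverse strand after it. The length of such a peak is thus the spacing between these piles, and it says little about how much DNA the protein covers. Positive reads were balanced over the chromosome, with 24288 forward and 24239 reverse reads in the strand windows, which are stretches that can reach past the peak. In 90 peaks (5.65%) one strand had at least 2 times the reads of the other, against 6.09% of the whole list.

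Along the chromosome the peaks come in blocks. The 101 bins of 1 Mb hold 1 to 44 peaks, with a mean of 15.8 and a median of 14, and no bin is empty. The fullest is the bin from 79 to 80 Mb, with 44 peaks. Next come the bins that start at 76 Mb with 42 peaks, at 99 Mb with 41 and at 98 Mb with 39. The bins that start at 73 and 81 Mb have 37 each. All 10 bins with 30 or more peaks start at 73 Mb or beyond, and together they hold 376 peaks, 23.6% of the chromosome. The emptiest bins start at 4 and 19 Mb, with 1 peak each, and at 13, 18 and 69 Mb, with 2 each. The bins beside the fullest one hold 25 peaks on its proximal side and 24 on its distal side, fewer than its 44 but still above the mean.

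**Figure D1:**
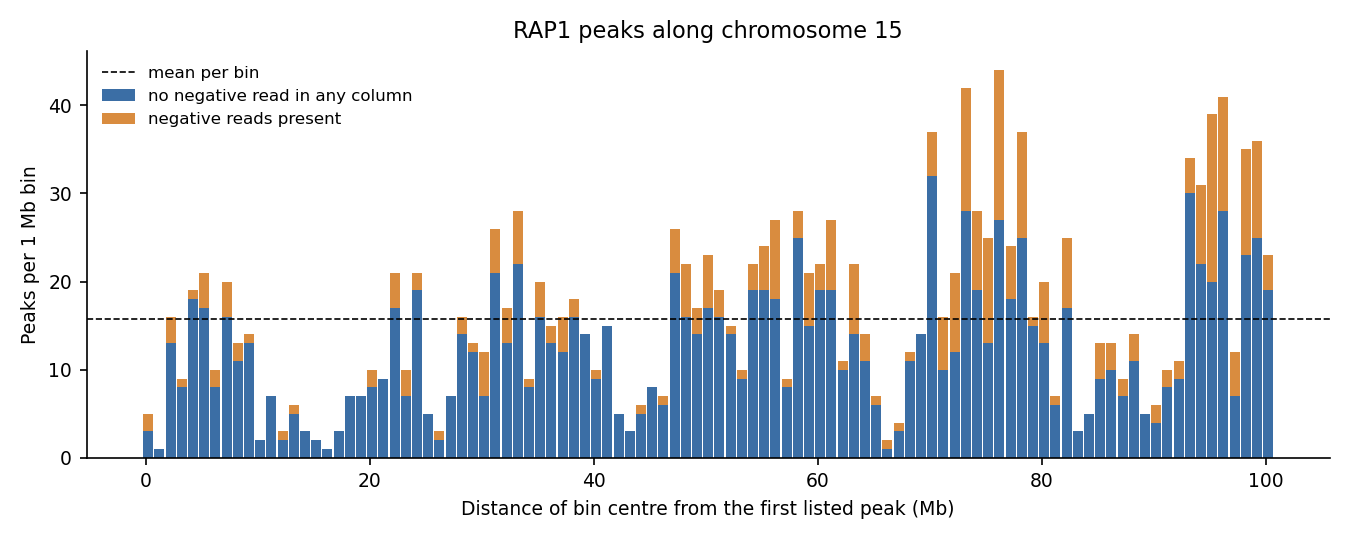
Peaks in each 1 Mb bin of chromosome 15 (y axis, peaks per bin) against the distance of the bin centre from the first listed peak (x axis, Mb). Blue bars are peaks with no negative read, orange bars are peaks with negative reads, and the dashed line is the mean of 15.8 peaks per bin; the tallest bars, up to 44 peaks, stand in the distal part, where the orange share is also larger.

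Neighbouring bins resembled each other. The variance of the bin counts was 6.82 times their mean, against a median of 5.41 over the other 18 autosomes (range 3.22 to 10.1). Counts of adjacent bins had a Pearson correlation of 0.48 on chromosome 15, where the other autosomes run from -0.02 to 0.51. This is a description across bins of 1 chromosome, which share the same libraries. A run of 11 consecutive bins from 73 to 84 Mb lay at or above the mean throughout and holds 310 peaks, which is 19.5% of the peaks in 10.9% of the bins. A run from 96 to 100 Mb holds 145 peaks in 4 bins, 36.3 per bin, and the last run, from 101 to 104 Mb, holds 94 peaks in 3 bins. Between these, the 10 bins from 86 to 96 Mb stayed below the mean, with 89 peaks, or 8.9 per bin. The longest sparse stretch, the 14 bins from 11 to 25 Mb, holds 87 peaks, 6.21 per bin. The distal weight is thus not a steady rise but a set of full blocks with a sparse block between them.

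The largest gap between neighbouring peaks spans 946.9 kb, from 86117744 to 87064610, and lies beyond the middle of the chromosome, after the run of full bins that ends at 84 Mb. The next 4 gaps run from 793.9 to 864.5 kb and all lie before the middle. The median gap is 30.1 kb on chromosome 15 and 38.6 kb in the whole list. Before the middle of the listed span (the proximal side) it is 46.2 kb, and after it (the distal side) 24.4 kb. Among 1592 neighbouring pairs on the chromosome 371 (23.3%) lie under 10 kb apart, against 20.2% of the whole list, with 16.5% on the proximal and 27.3% on the distal side.

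The midpoint of the listed span divides it into a proximal and a distal side, with 589 and 1004 peaks by peak midpoint. The distal side thus holds 63.0% of the peaks (exact Clopper-Pearson 95% interval 60.6 to 65.4, for counting error only and too narrow for peaks that cluster). Over the other 18 autosomes the distal side holds 42.9% to 63.3% of the peaks, with a median of 53.5%, and chromosome 7 alone has a higher share than chromosome 15. The last of 3 equal parts holds 44.7%, against a median of 35.5% elsewhere (27.9% to 44.96%). With the span in 10 equal parts numbered from the centromere side, part 8 holds 17.9% of the peaks and part 10 holds 17.1%. Both lie above the highest value of the other 18 autosomes for that part, 14.3% and 15.4%. Part 9, between them, holds 6.34%, less than 17 of the other 18 autosomes. Part 2 holds 2.76%, below all 18, whose lowest value is 4.64%. These positions were not tested against the other chromosomes.

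**Figure D2:**
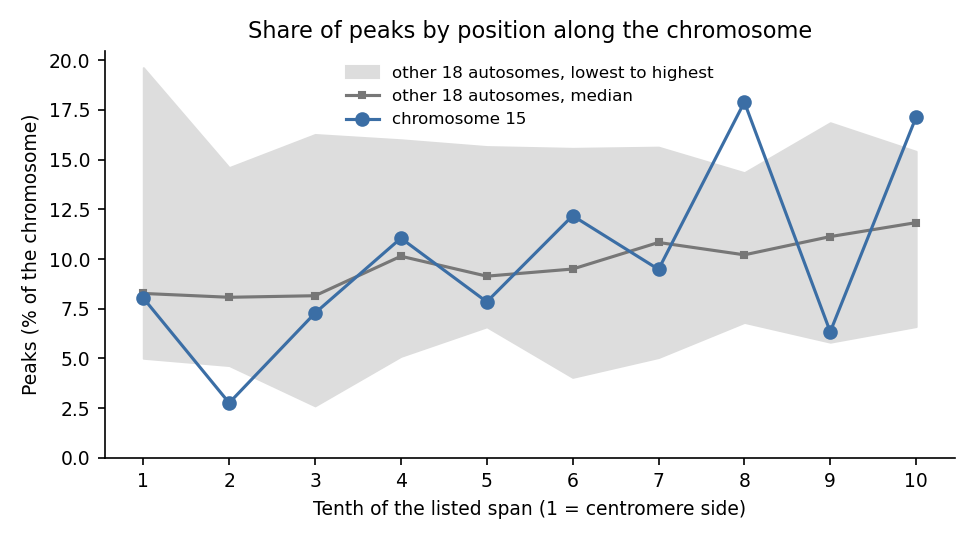
Share of a chromosome's peaks (y axis, %) in each of 10 equal parts of its listed span (x axis, 1 at the centromere side). Chromosome 15 is the blue line, the grey line is the median and the grey band the lowest to highest value of the other 18 autosomes; chromosome 15 rises above the band in part 8 (17.9%) and part 10 (17.1%) and drops below it in part 2 (2.76%).

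Close to the distal end the density stayed high in every window looked at. With the last peak left out, the last 0.5 Mb holds 22 peaks where an even spread over the chromosome would place 7.95, a ratio of 2.77. The last 1 Mb holds 39 peaks, a ratio of 2.45, and the last 5 Mb holds 173 peaks, a ratio of 2.18. In the last 10 Mb the ratio is 1.71, since that window reaches into the sparse block. The proximal end showed the opposite. Its first 1 Mb holds 4 peaks besides the first one, a ratio of 0.252, and its first 10 Mb holds 127, a ratio of 0.799.

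The distal blocks also hold more control reads, that is reads from the Rap1-deleted set in the strand windows. On chromosome 15, 354 peaks (22.2%, interval 20.2 to 24.3) have negative strand reads, against 18.8% of the whole list. The share is 15.4% (12.6 to 18.6) on the proximal side and 26.2% (23.5 to 29.0) on the distal side. By sixths of the span, each 16.7 Mb long, it runs from the centromere side as 14.5%, 15.8%, 15.7%, 20.2%, 29.1% and 28.2%. The first 3 sixths lie below the share of the whole list and the other 3 above it. The intervals of the first 3 (9.30 to 21.1, 11.1 to 21.6 and 11.3 to 21.0) and of the fourth (15.8 to 25.3) include that share.

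The balance of positive against negative reads moved the other way. Negative reads were multiplied by 3.32, the scale between the read sets that the authors' deposited log2 folds contain. Over the chromosome 48527 positive stand against 3118 negative strand reads, a scaled ratio of 4.69 (exact conditional binomial 95% interval 4.52 to 4.86), where the whole list gives 5.72 (5.67 to 5.77). On the proximal side the ratio is 6.99 (6.496 to 7.53), from 745 negative reads. On the distal side it is 3.96 (3.80 to 4.13), from 2373 negative reads. Among the sixths it is highest in the third, at 8.20 (7.22 to 9.34), and lowest in the fifth and the last, at 3.56 (3.34 to 3.80) and 3.55 (3.32 to 3.80). The last 2 sixths hold the most peaks and have the lowest ratios, as a description of peaks chosen with these reads known. The part of control reads in the distal weight was not tested. Among the 1239 peaks without any negative read, 741 (59.8%, 57.0 to 62.6) lie on the distal side. Among the 354 with negative strand reads 263 do (74.3%, 69.4 to 78.8). Over the other 18 autosomes the distal share of peaks without any negative read runs from 44.4% to 65.2%, with a median of 53.0%.

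**Figure D3:**
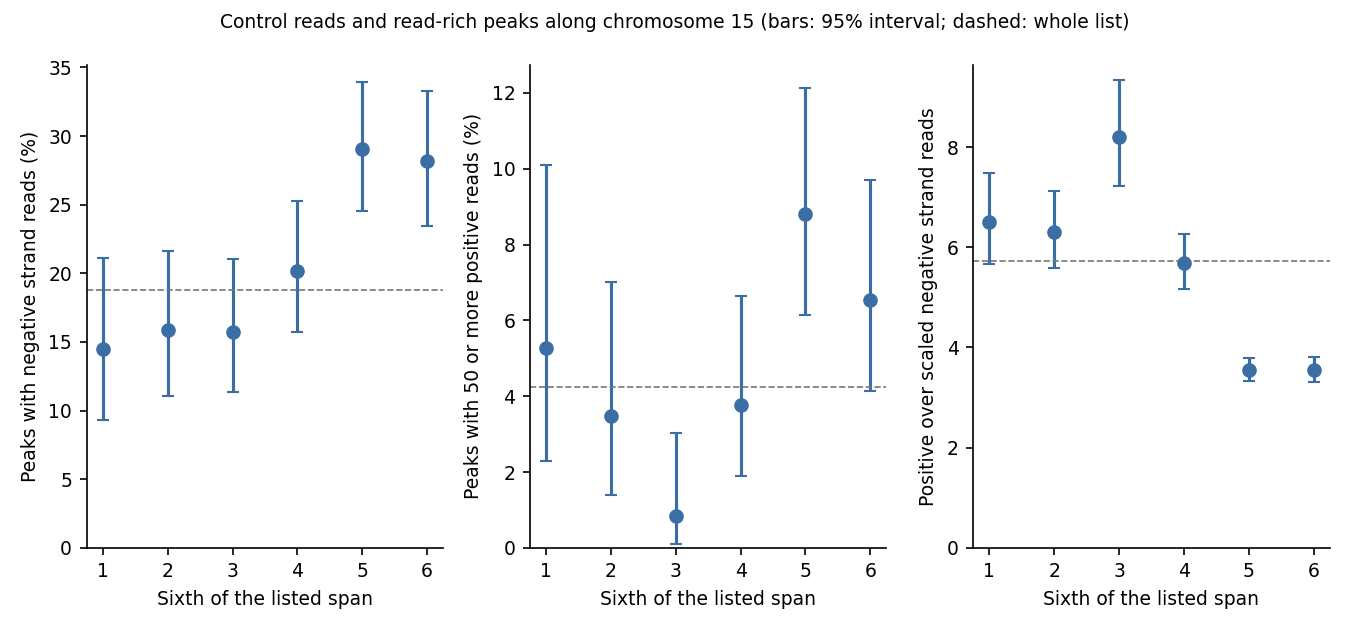
Chromosome 15 in 6 equal parts of its listed span (x axis, 1 at the centromere side): share of peaks with negative strand reads (left, %), share of peaks with 50 or more positive reads (middle, %) and positive over scaled negative strand reads (right, ratio). Points are values, bars are exact 95% intervals and dashed lines are the whole list; the last 2 parts have the highest shares with negative reads (29.1% and 28.2%) and the lowest ratios (3.56 and 3.55).

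The full blocks were not alike in this respect. The bin that starts at 96 Mb has 34 peaks, of which 4 have negative strand reads (11.8%). Its ratio is 13.3 (8.64 to 21.6), from 927 positive and 21 negative reads. A little further on, the bin that starts at 98 Mb has 39 peaks, of which 19 have negative strand reads (48.7%), with a ratio of 1.77 (1.54 to 2.05). The bin that starts at 73 Mb has 37 peaks, 5 with negative strand reads (13.5%), and a ratio of 5.82 (4.47 to 7.71). Over all 10 bins with 30 or more peaks, 116 of 376 peaks (30.9%) have negative strand reads, against 18.8% of the whole list. Of these bins, only those that start at 73 and 96 Mb lie below that list share, and the others run from 29.0% to 48.7%. Among the sparse stretches, the 8 bins from 42 to 50 Mb hold 68 peaks with a ratio of 35.3 (21.7 to 61.8), from 16 negative reads. The 14 bins from 11 to 25 Mb give 9.87 (7.84 to 12.6), and the 10 bins from 86 to 96 Mb give 5.93 (4.98 to 7.12). Across the 101 bins, a higher peak count went with a higher share of peaks with control reads in the strand windows (Pearson's r 0.477, Spearman's rho 0.477). It also went with the mean positive reads per peak (r 0.513, rho 0.540). In the 68 bins with 10 or more peaks these were r 0.420 and rho 0.391, and r 0.389 and rho 0.386. The bins share their libraries and read depth, so these are descriptions.

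Where control reads occurred, they mostly sat on one strand. A single strand carries all negative strand reads in 306 of 354 peaks (86.4%), 137 on the forward and 169 on the reverse strand. In the whole list the share is 88.7%. Positive reads could not show this pattern, because every listed peak has at least 10 of them on each strand. Negative reads on both strands were found in 48 peaks (3.01%), against 2.12% of the whole list, and 41 of these 48 lie on the distal side. The median peak with such reads has 7 (interquartile range 4 to 12, highest 46). In 117 peaks one strand alone holds 10 or more negative reads, and in 89 of these the other strand has none. In 127 peaks (7.97%) the scaled negative reads equal or exceed the positive ones in the strand windows, against 6.58% of the whole list. The whole-peak columns show little of this, since they give 0 negative reads for 350 of the 354 peaks. Strand windows can reach past the peak, and whether these negative reads lie on the peak or beside it was not determined.

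The peaks with most negative strand reads lie in different parts of the chromosome. The one from 74916542 to 74916752 has 44 forward and 36 reverse positive reads against 32 forward and 14 reverse negative reads, a scaled ratio of 0.524 (0.360 to 0.770). The peak from 9049901 to 9049959 has 48 positive against 35 negative strand reads, a ratio of 0.413 (0.262 to 0.658). The third, from 98759230 to 98759264, has 45 against 34 and a ratio of 0.398 (0.250 to 0.642). These peaks were picked for their negative reads, so low ratios follow from the choice. The authors rank them 1909, 557 and 1972 of 30398, and each has 0 negative reads in the whole-peak column. Among the 131 peaks with 10 or more negative strand reads, the highest ratio is 2.11 (1.11 to 4.40), from 99555098 to 99555127, with 77 positive and 11 negative strand reads. The next are the peaks from 99649134 to 99649432, at 1.78 (0.932 to 3.74), and from 88959115 to 88959161, at 1.60 (0.803 to 3.52). Requiring many negative reads favours low ratios, so these values describe the chosen peaks only.

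Read-rich peaks, here those with 50 or more positive reads, number 83 on chromosome 15 (5.21%, 4.17 to 6.42), against 4.23% of the whole list. Of these 83, 66 lie on the distal side (79.5%, 69.2 to 87.6) and 17 on the proximal side. They stand in 36 of the 101 bins. The share of read-rich peaks is 8.80% (6.13 to 12.1) in the fifth sixth of the span and 0.851% (0.103 to 3.04) in the third, with 33 and 2 peaks. At the limit itself, 4 peaks hold 49 reads and 6 hold 50. Their median length is 105 bp against 55 bp for the other peaks, and 40 of the 83 are 120 bp or longer, against 142 of 1510. Negative strand reads are present in 41 of the 83 (49.4%, 38.2 to 60.6) and in 313 of the 1510 others (20.7%, 18.7 to 22.9). Of the 42 without any negative read 27 lie on the distal side (64.3%, 48.0 to 78.4). Among the read-rich peaks of the whole list the median length is 89 bp, and 42.3% have negative strand reads.

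The peaks with the most positive reads on the chromosome are a pair of neighbours in the 78 Mb bin. The peak from 78761011 to 78761110 holds 111 positive reads and 2 negative ones. Scaled, this is a ratio of 16.7 (4.52 to 139.7), and the strand windows give 16.3 (4.39 to 136.0). The authors rank it 73. The peak from 78761502 to 78761921 holds 97 positive and no negative reads. It is 420 bp long and is ranked 1378. A count of 0 allows up to 3 negative reads over the pooled set, or 9.96 after scaling. With its positive reads taken as exact, this peak is thus at least 9.74-fold higher in the wild-type set. The floors given below are computed likewise and leave out the counting error of the positive reads. Both belong to a group of 6 peaks within 14.8 kb, joined at gaps of up to 10 kb, whose members hold 20 to 111 positive reads. In that group 5 of the 6 peaks have negative strand reads, and its summed ratio is 2.52 (1.83 to 3.56), far below that of its strongest member.

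Better-ranked peaks mostly hold more reads on this chromosome, with exceptions. All 10 best-ranked peaks hold 50 or more positive reads. The best-ranked peak, at rank 54, lies from 75753805 to 75753834 and is 30 bp long, with 61 positive reads and 4 negative ones over the peak, which gives 4.59 (1.70 to 17.4). In its strand windows 62 positive reads stand against 17 negative, all on the forward strand, which gives 1.10 (0.634 to 2.004). Second, at rank 61, is a proximal peak from 6572711 to 6572795, with 75 positive and no negative reads, at least 7.53-fold higher. Rank 79, from 103078897 to 103078963, holds 79 positive and no negative reads, at least 7.93-fold higher. An exception is the peak from 5445155 to 5445375, the fourth richest of the chromosome with 86 positive reads, which is ranked 19517. Its strand windows give 2.78 (1.39 to 6.28), from 9 negative reads, and its deposited log2 fold is 4.58, against 5.88 for the best-ranked peak. Over the 1593 peaks, Spearman's rho of rank (1 is best) was -0.998 with the deposited log2 fold and -0.703 with the positive reads over the peak, a description across peaks of the same read sets.

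The other peaks among the 10 best-ranked split by control reads. Without any negative read stand the peak from 36199846 to 36199948, with 50 positive reads (at least 5.02-fold higher), and that from 14687659 to 14687745, with 51 (at least 5.12-fold). With negative strand reads stand 4 peaks. At 101818720 to 101818803, 55 positive stand against 12 negative reads, and the ratio is 1.38 (0.730 to 2.83). That from 74579829 to 74579869 has 40 against 10, a ratio of 1.204 (0.592 to 2.70). The intervals of both include 1. At 74767519 to 74767852, 77 stand against 4, and the ratio is 5.80 (2.17 to 21.8), and that from 76157486 to 76157628 has 83 against 7, a ratio of 3.57 (1.66 to 9.15). Over the 10 best-ranked peaks of the chromosome, then, 4 had no negative read, 3 had a strand-window interval above 1 and 3 an interval that includes 1.

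Within the fullest bin, from 79000000 to 80000000, the 44 peaks hold 15 to 80 positive reads, with a median of 26, and 5 of them hold 50 or more. Negative strand reads are present in 17 (38.6%, 24.4 to 54.5), on both strands in 4, and the summed ratio is 2.85 (2.40 to 3.403). These reads are not spread evenly. The last 0.1 Mb of the bin has 10 peaks, 8 of them with negative strand reads, and a ratio of 1.45 (1.14 to 1.87). The remaining 34 peaks include 9 with negative strand reads and give 4.64 (3.59 to 6.09), close to the 4.69 of the chromosome. From 79400000 to 79500000 there is no peak. Just inside the proximal edge, the peak from 79059509 to 79059577 has 53 positive reads and 1 negative strand read. The last peak before the bin, from 78988484 to 78988513, has 32 and none.

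The last 0.1 Mb of the bin holds the largest group of the chromosome, 8 peaks within 13.6 kb from 79906673 to 79920280. All 8 have negative strand reads. In order along the chromosome the peaks hold 50, 34, 81, 38, 48, 28, 28 and 31 positive strand reads. In the same order they hold 5, 11, 8, 22, 17, 10, 7 and 1 negative strand reads. The summed ratio is 1.26 (0.983 to 1.62), an interval that includes 1. The best-ranked peak of the bin lies here, from 79907379 to 79907467, with 80 positive reads over the peak and a strand ratio of 3.05 (1.48 to 7.30). Its neighbour from 79906673 to 79906738 gives 3.01 (1.21 to 9.67). Another, from 79911262 to 79911292, has 38 positive against 22 negative strand reads, all of the latter on the reverse strand, and a ratio of 0.520 (0.300 to 0.923). In the strand windows the group thus mixes peaks above and below the scaled control. Another group in the same bin looks different. Its 5 peaks from 79175165 to 79197877 hold 23 to 31 positive reads over the peak and no negative read. Taken singly, the peaks are at least 2.31-fold to 3.11-fold higher over the peak.

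**Figure D4:**
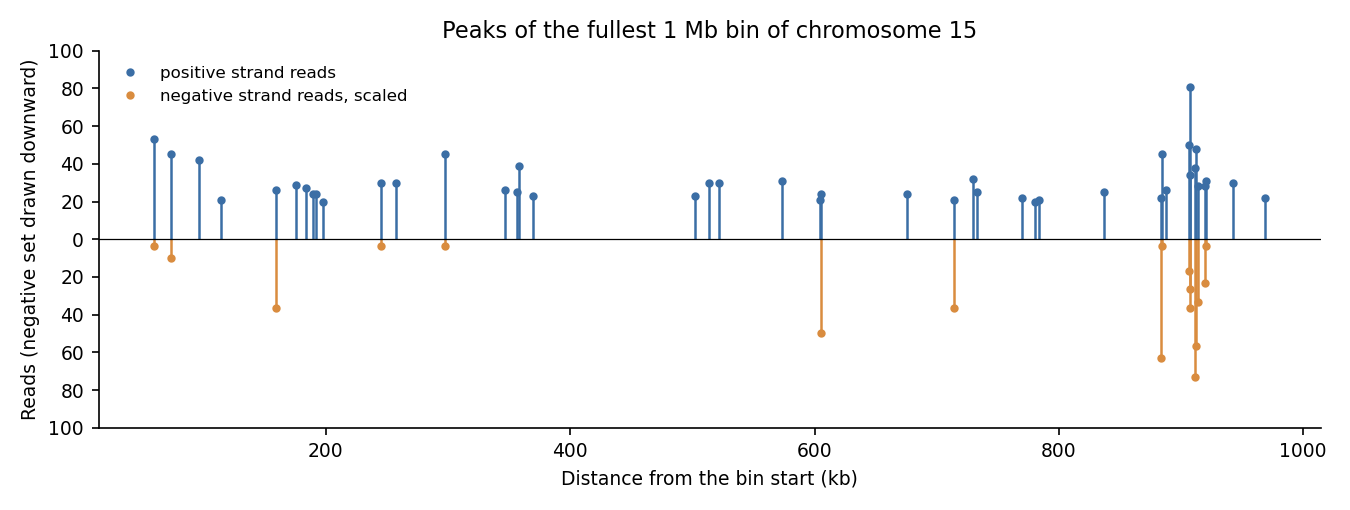
The 44 peaks of the fullest 1 Mb bin at their distance from the bin start (x axis, kb). Blue stems show positive strand reads upwards and orange stems show scaled negative strand reads downwards (y axis, reads); the orange stems crowd in the last 100 kb, where 8 of 10 peaks have them.

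Over the whole chromosome, joining peaks at gaps of up to 10 kb gives 971 lone peaks, 178 pairs and 73 groups of 3 or more peaks. The 73 groups hold 266 peaks, 16.7% of the chromosome, where the other 18 autosomes run from 6.45% to 23.7% with a median of 11.8%. Of the 73, 59 lie on the distal side. No negative strand read stands in 25 of them. In 14 the whole interval of the ratio lies above 2, in 10 it lies below 2, and in 24 it includes 2. A group without negative reads on the proximal side, 5 peaks from 27712492 to 27729035, holds 139 positive strand reads, with 21 to 35 positive reads over each peak. On the distal side, 5 peaks from 85538552 to 85546323 give 19.4 (6.53 to 94.7), from 193 against 3 reads. At the other extreme, 6 peaks from 98855901 to 98878488 give 0.755 (0.568 to 1.01), from 173 against 69 reads. Clustering of peaks was thus met with and without control reads.

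The distal window, from 101.9 to 103.1 Mb, holds 54 peaks with 20 to 79 positive reads and a median of 32. Negative strand reads are present in 20 of them (37.0%, 24.3 to 51.3), and the summed ratio is 2.53 (2.20 to 2.93). Of its peaks 14 (25.9%, 14.96 to 39.7) are 31 bp long or shorter, against 17.5% of the chromosome. The peaks thin out past its middle: 6 lie between 102600000 and 103000000, and none between 102900000 and 103000000. Only 1 lies between 102000000 and 102100000. At its proximal edge the window cuts through a group. The peak just outside, from 101896241 to 101896269, has 20 positive reads over the peak and 8 negative strand reads. The one just inside, from 101905083 to 101905566, has 48 and 8. At the distal edge the last peak inside has 79 positive reads and no negative, and the first outside, from 103101833 to 103101863, has 25 positive reads and 2 negative strand reads.

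There are 6 groups of 3 or more peaks in or across the window. They differ in their control reads, from none to scaled negative reads above the positive ones, there with intervals of the ratio that include 1. The first, 3 peaks from 101896241 to 101914523, gives 0.974 (0.641 to 1.52), and its best-ranked member, from 101914492 to 101914523, gives 0.473 (0.231 to 0.9999). The second, 5 peaks from 101930098 to 101947465, gives 2.19 (1.44 to 3.48). It is led by a 35 bp peak, from 101930098 to 101930132, with 75 positive reads over the peak and 59 against 12 in the strand windows (1.48, 0.787 to 3.03). The third, 5 peaks from 102492572 to 102505676, gives 6.66 (3.31 to 15.7). Its best-ranked peak, from 102500282 to 102500360, has 36 positive against 1 negative strand read, a ratio of 10.8 (1.83 to 439.9).

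The fourth group, 3 peaks from 102570495 to 102579774, gives 0.903 (0.573 to 1.47). All of its negative reads fall on the peak from 102573307 to 102573335, with 13 on each strand against 11 and 23 positive reads, a ratio of 0.394 (0.229 to 0.683). The fifth group, 5 peaks from 103016109 to 103046554, has 224 positive strand reads and no negative read. Taken singly, its peaks are at least 3.21-fold to 5.72-fold higher over the peak. Its members hold 57, 45, 32, 37 and 54 positive reads over the peak, in order along the chromosome, and its best-ranked peak, from 103016109 to 103016427, is 319 bp long. In the sixth, 3 peaks from 103070618 to 103078963 give 1.25 (0.850 to 1.89). There the rank 79 peak described before stands without negative reads beside a 29 bp peak, from 103070618 to 103070646, that has 26 negative reads on the forward strand and none on the reverse. At the distal end of the window, a group without negative reads thus lies beside a group whose first peak has 26 of them.

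**Figure D5:**
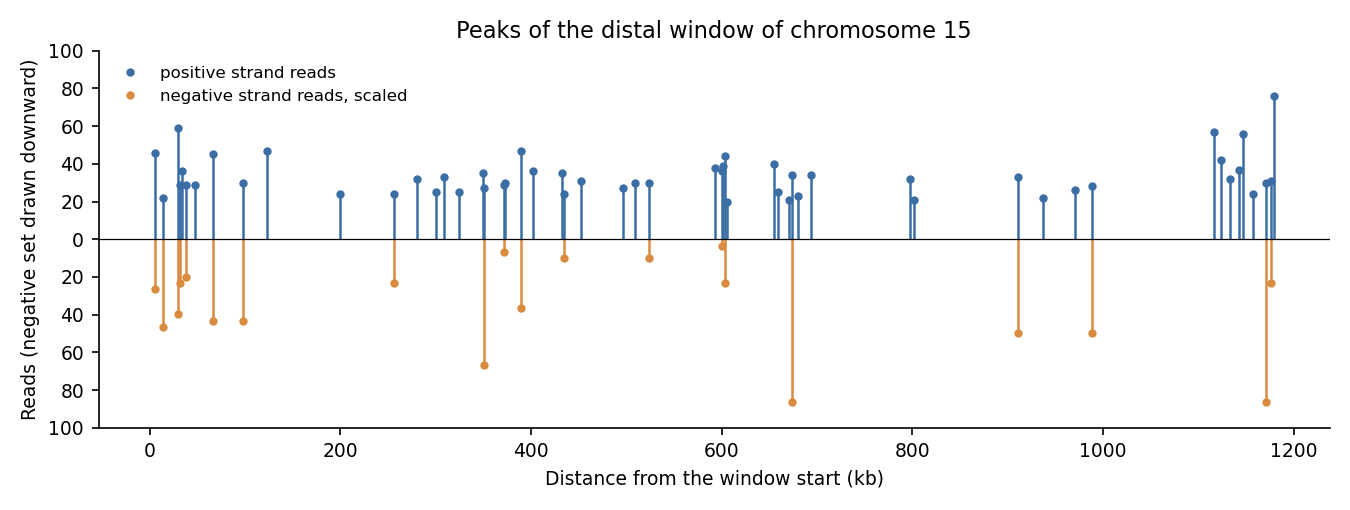
The 54 peaks of the distal window at their distance from the window start (x axis, kb), with positive strand reads upwards in blue and scaled negative strand reads downwards in orange (y axis, reads). The 5 peaks of the fifth group have no orange stem, while 20 of the 54 peaks do.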

How the data were processed

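RAP1 immunoprecipitates of wild-type and Rap1-deleted fibroblasts and an input were sequenced on the Illumina Genome Analyzer IIx after gel selection and PCR, per the labels' protocols. Coordinates are on mm9, the build named in the submitters' processing notes. Which aligner, caller and filters were used is not given in the sources used here. A single peak list with pooled positive and negative reads was deposited by the authors. Per the file headers it holds the count of reads over each peak and in strand windows, not normalised, and a coverage signal, the highest number of reads in a window. The deposited fold columns are log2 values. The deposited false discovery rate is a q-value. A deposited column with values between 0 and 1, treated as a fraction, was not used. Depth per library is unknown here.

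The scale of 3.32 was solved from the deposited log2 folds: 140 of 141 usable strand entries gave it within 0.001. Bins of 1 Mb take peaks by start. Sides and equal parts divide the span from first to last listed peak, and peaks fall in them by midpoint. Ratios have exact conditional binomial and shares exact Clopper-Pearson 95% intervals. A count of 0 was bounded with 3 negative reads over the pooled set, with the positive reads taken as exact. Intervals cover counting error only, and floors cover only that of the negative reads. PCR copies are not independent molecules, and every peak was selected on these reads. Grouping and intervals were tested on simulated data. Python 3.11.15, pandas 2.3.3 and SciPy 1.17.1 were used.

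Peaks were named by rule: the 10 best-ranked of the chromosome, the 3 best-ranked of the fullest bin, the best-ranked of each group of 3 or more in the distal window, the 3 with most negative strand reads, the 3 largest ratios among those with 10 or more such reads, and the first and last. The 5 fullest bins (6 with ties) and the 5 emptiest were named too. Peaks and groups named for their number of reads, the bin that starts at 96 Mb, and runs of at least 3 bins were picked with their values in view. The chromosome, its windows and these rules were chosen with earlier results of these data known. The comparison of libraries, its replicate block and leaving out replicates would need each library's own values and were left out.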

Additional observations from a re-analysis of the deposited data

How the results depend on the processing

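No paired analysis was possible because the deposited columns pool the replicates of each group, and for the same reason no replicate could be left out. Of 22 alternatives over 8 results, 13 stayed within 1.5 times the value or within its interval and 9 moved further; 1 of these turned a comparison with the whole list, the whole-peak ratio given below, and none of these values has a test. The density of chromosome 15 fell from 15.9 to 7.87 peaks per Mb in the better-ranked 50% of the list and to 8.84 at a false discovery rate at or under 0.01, which keep fewer peaks by construction; over all autosomes these settings gave 6.23 and 6.96, against 12.4 with all peaks. The distal side held 59.8% of the peaks without any negative read, below the interval of the 63.0% for all peaks, and 65.2% of the better-ranked ones. Groups of 3 or more peaks numbered 36 with gaps of up to 5 kb and 127 with gaps of up to 20 kb. Peaks with 40 or more positive reads made up 14.7% of the chromosome (13.0% of the list) and those with 80 or more 0.377% (0.257%). Without scaling, positive over negative strand reads was 15.6, and 19.0 in the whole list. The whole-peak columns gave 1842 (935.0 to 4268) from 48954 positive and 8 negative reads, and 1393 in the whole list, so that chromosome 15 lay above the list there and below it in the strand windows (4.69 against 5.72). Since those columns are at 0 for 350 of 354 peaks with negative strand reads, this value is no measure of the excess over the control. The fullest bin held 2.79 times the mean bin, and 2.20 to 3.41 times over the 5 alternatives. With bins of another width or start, the value is that of the fullest bin overlapping 79 to 80 Mb. The 2.20 is for peaks without any negative read, and there the bin from 79 to 80 Mb was no longer the fullest. It held 27 such peaks, against 32 in the bin that starts at 73 Mb, 30 at 96 Mb and 28 each at 76 and 99 Mb. Chromosome 15 stayed above the all-autosome density in the 5 settings and above the median distal share of the other autosomes in the 5 settings where that was computed.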

Other observations

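Negative deposited folds on a single strand mark more scaled negative than positive reads at one position. They occur in 11 of the 1593 peaks of chromosome 15 and in 135 of the 30398 of the whole list. Of the 11, 9 lie on the distal side. That side holds 63.0% of the chromosome's peaks and 74.3% of those with negative strand reads. The lowest such log2 fold on chromosome 15 is -2.75. Peaks with negative strand reads were shorter, with a median of 48.5 bp against 58 bp for those without, and 86 of the 354 (24.3%, 19.9 to 29.1) were 31 bp long or shorter, against 192 of 1239 (15.5%, 13.5 to 17.6). The intervals treat peaks as independent, which neighbours are not.

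Chromosome 7 resembles chromosome 15 in its distal share (63.3%) at less than 50% of its density (6.91 peaks per Mb). Chromosome 19 resembles it in density (17.5 peaks per Mb), share of peaks with negative strand reads (22.2%) and strand ratio (4.90), with 49.3% of its peaks on the distal side. Chromosome 11 has all of these together, with 18.4 peaks per Mb, 59.7% of its peaks on the distal side, 25.6% with negative strand reads and a strand ratio of 3.88. Chromosome 3 has 14.5 peaks per Mb, 60.5% on the distal side, 20.7% with negative strand reads and a ratio of 5.21. These are descriptions of single chromosomes, with no test between them.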
